A study of Sus scrofa with 6 samples.

Results

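Calcineurin is a calcium-dependent protein phosphatase. It is a pair of a catalytic A subunit, encoded by PPP3CA or PPP3CB in most tissues, and a calcium-binding B subunit, encoded by PPP3R1. When calcium rises, calmodulin binds the A subunit, and the active enzyme removes phosphate from the NFAT transcription factors (NFATC1 to NFATC4), which then enter the nucleus. In the heart this pathway is known for its part in hypertrophic growth under pressure load. The regulators of calcineurin (RCAN1, RCAN2 and RCAN3) bind the enzyme and can inhibit it, and a transcript of RCAN1 is itself a target of NFAT, so that its level is often read as a sign of calcineurin activity. These 10 genes, of the 13288 genes with values, were examined in the ventricular myocardium of minipigs with and without pressure overload. The set was chosen by measured values of these samples, because the FPKM of RCAN1 was higher in part of the constricted animals. The comparison of the groups is therefore given as a description for all 10 genes, with no P. The symbols of 9 genes stand in the deposited table, and PPP3R1 was found through its gene identifier.

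The animals were male Tibetan minipigs, a small pig breed, and their age is not given in the sources used here. In 3 minipigs with descending aortic constriction (DAC), sutures narrowed the descending aorta until the pressure on the side of the heart exceeded that beyond the narrowing. The 3 sham minipigs went through the same anesthesia and opening of the chest without constriction. Ventricular tissue was taken at week 12, and 1 RNA library per minipig was sequenced (sham replicates 1 to 3, DAC replicates 4 to 6). The labels do not say which ventricle was sampled. Expression is given in FPKM, fragments scaled by transcript length and by the mapped fragments of the library, so levels can be set side by side between genes.

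The summed FPKM of a library was between 281377 and 308771, and read numbers are unknown. Mitochondrially encoded genes held between 24.0% and 25.3% of it in the sham libraries, 27.1% and 27.2% in DAC replicates 6 and 4, and 32.8% in DAC replicate 5. The cardiomyocyte markers, 8 of 9 of which had values, summed to between 14416 and 15119 FPKM in the sham group and between 13596 and 16649 FPKM in the DAC group, and none was at 0. In bulk tissue, fewer cells of a type and less RNA per cell cannot be told apart.

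RCAN1 (ENSSSCG00000012050, chromosome 13 from 198102098 to 198205629, minus strand, all positions on susScr11) was at 13.7, 14.4 and 11.6 FPKM in sham replicates 1, 2 and 3. It was at 58.8 FPKM in DAC replicate 4, 18.9 FPKM in DAC replicate 5 and 45.0 FPKM in DAC replicate 6. Every DAC minipig lay above every sham minipig, but DAC replicates 4 and 6 stood far above the rest, and DAC replicate 5 lay closer to the sham minipigs than to the other DAC minipigs. Relative to the sham mean, RCAN1 was 4.45-fold in DAC replicate 4, 3.40-fold in DAC replicate 6 and 1.43-fold in DAC replicate 5. DAC replicate 5 was 1.32 times the highest sham value. RCAN1 averaged 13.2 ± 1.45 FPKM in sham and 40.9 ± 20.3 FPKM in DAC minipigs (SD, n = 3 each). The spread within the DAC group was 49.6% of its mean, against 11.0% in the sham group. On the scale of log2(FPKM + 1), the difference between the group means was 1.42 with a standard error of 0.38 from limma. It ranked 11 from the highest among the 11029 genes tested, a description only, since the set was chosen for this rise. Leaving out DAC replicate 5 raised this difference to 1.89, and leaving out DAC replicate 4 lowered it to 1.09. DAC replicate 5 was also the library with the largest mitochondrially encoded share, and with those genes left out the difference for RCAN1 was 1.46. Whether this share bears on the lower RCAN1 value of DAC replicate 5 was not tested. The values are for the whole gene, so RCAN1 transcripts that start from different first exons are summed in them.

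**Figure D1:**
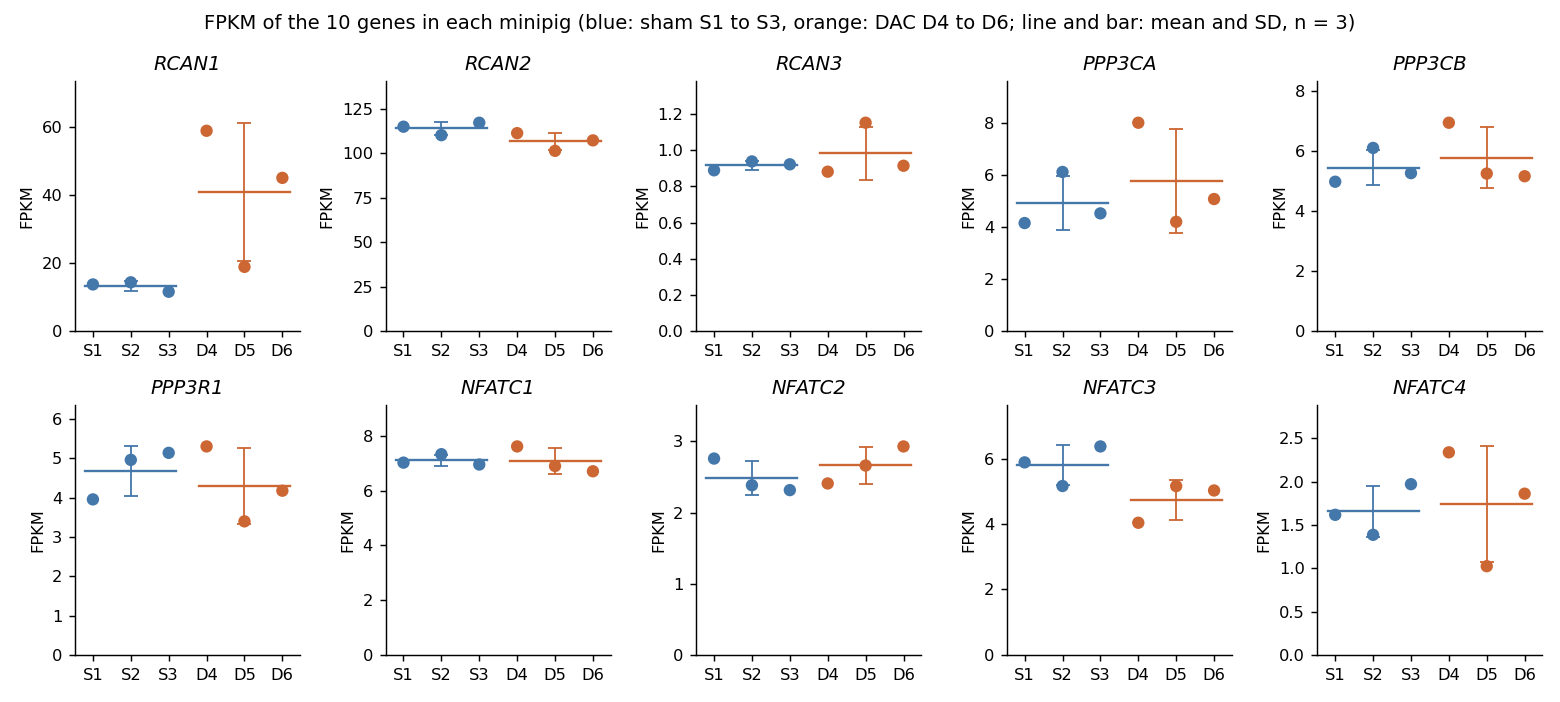
FPKM (vertical axes, each from 0) of the 10 genes in each minipig; S1 to S3 are sham replicates 1 to 3, D4 to D6 are DAC replicates 4 to 6, lines are group means and bars are SD (n = 3). RCAN1 reached 58.8 and 45.0 FPKM in D4 and D6 and 18.9 FPKM in D5, against 11.6 to 14.4 FPKM in the sham minipigs, while for RCAN2, RCAN3, the calcineurin subunits, NFATC1, NFATC2 and NFATC4 the groups overlapped.

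RCAN2 (ENSSSCG00000001716, chromosome 7 from 40980523 to 41227021), the regulator of calcineurin that is abundant in heart and brain, was at 115, 110.1 and 117 FPKM in the sham minipigs and at 111, 101 and 107 FPKM in DAC replicates 4, 5 and 6. The groups overlapped, and the difference in mean log2(FPKM + 1) was -0.10 with a standard error of 0.09. RCAN2 varied little among the minipigs, with an SD of 5.10% of the mean over all 6, and its sham spread of 3.13% compares with a median of 12.2% over all genes tested. The listed span of RCAN2 overlaps that of ENPP5 on the same strand, as do RCAN3 with NCMAP and PPP3CB with MSS51, while PPP3R1 overlaps PLEK and PNO1 on the opposite strand, and how shared reads were assigned is not given in the sources used here. RCAN3 (ENSSSCG00000024818, chromosome 6 from 82186368 to 82226130), the least abundant of the family, was at 0.889, 0.938 and 0.922 FPKM in the sham minipigs and at 0.882, 1.15 and 0.914 FPKM in the DAC minipigs. It exceeded 1 FPKM in DAC replicate 5 alone and so did not pass the filter of at least 1 FPKM in at least 3 minipigs, which the other 9 genes passed.

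Levels within a family were compared over the 6 minipigs, since the choice of the genes used the difference of RCAN1 between the groups and not the order of levels within a minipig. RCAN2 exceeded RCAN1 in 6 of 6 minipigs, and RCAN1 exceeded RCAN3 in 6 of 6. Each of these pairs had an exact two-sided sign-flip permutation P of 0.0312 (adjusted P = 0.0347 over 10 pairs), and 0.0312 is the smallest P that 6 minipigs allow. The RCAN1 values that led to the choice of the set enter both pairs, so P is a description only for them. The lead of RCAN2 over RCAN1 was 8.37-fold, 7.67-fold and 10.1-fold in the sham minipigs. In the DAC minipigs it was 1.89-fold, 5.36-fold and 2.38-fold, so the lead was smaller in each DAC minipig than in any sham minipig. RCAN1 accordingly made up 8.94% to 11.4% of the summed RCAN level in the sham minipigs. In DAC replicates 4, 5 and 6 it made up 34.4%, 15.6% and 29.4%. The smaller lead and the larger share largely restate the rise of RCAN1 for which the set was chosen and are no further result. The summed RCAN level itself averaged 128 ± 2.39 FPKM in sham and 148 ± 25.1 FPKM in DAC minipigs (SD, n = 3 each). It was at 171 and 153 FPKM in DAC replicates 4 and 6, above all sham minipigs, and at 121 FPKM in DAC replicate 5, below all of them.

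**Figure D2:**
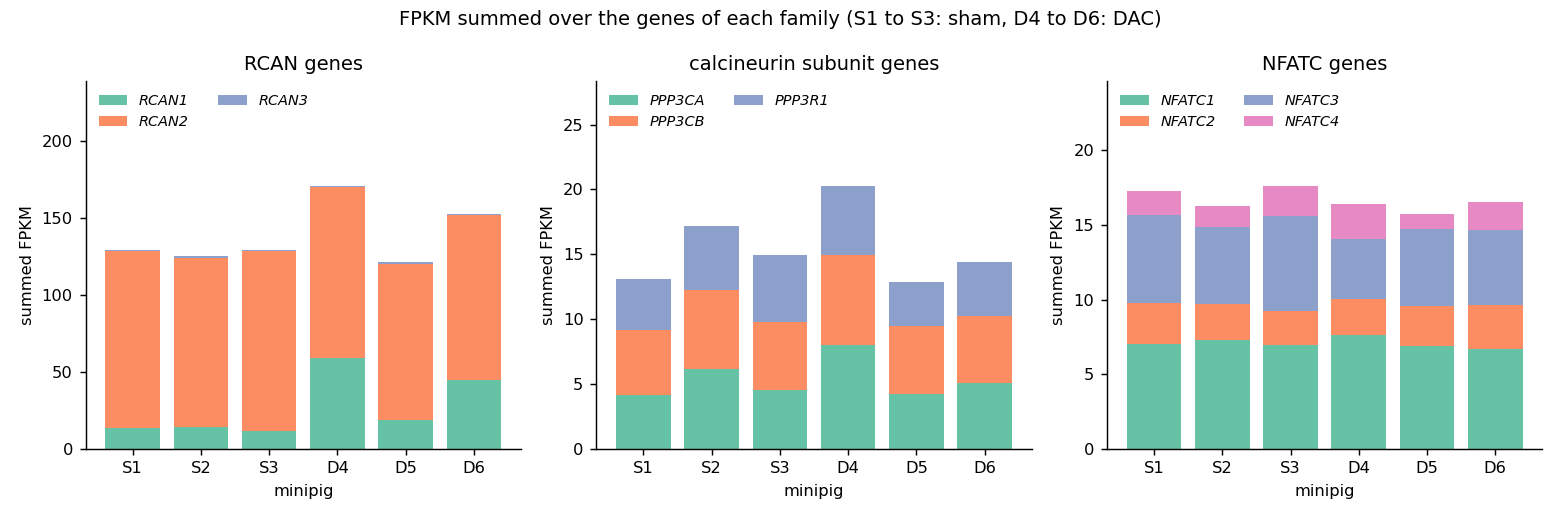
FPKM summed over the RCAN genes, the calcineurin subunit genes and the NFATC genes (vertical axes from 0) in each minipig, with 1 color for each gene; S1 to S3 are sham and D4 to D6 are DAC. RCAN2 is the largest part of the RCAN bar in every minipig. The RCAN1 part is 8.94% to 11.4% of the bar in the sham minipigs and 15.6% to 34.4% in the DAC minipigs. This largely restates the rise of RCAN1 for which the set was chosen. The NFATC bars stay between 15.7 and 17.6 FPKM.

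The genes of the enzyme were expressed at lower levels. PPP3CA (ENSSSCG00000009172, chromosome 8 from 119428743 to 119754650), which encodes the alpha form of the catalytic subunit, was at 4.16, 6.12 and 4.53 FPKM in the sham minipigs and at 8.01, 4.20 and 5.08 FPKM in the DAC minipigs. DAC replicate 4 was the highest of the 6, and the other DAC minipigs lay within the sham range. PPP3CB (ENSSSCG00000010301, chromosome 14 from 76248849 to 76305328), which encodes the beta form, was at 4.98, 6.11 and 5.27 FPKM in the sham minipigs and at 6.94, 5.25 and 5.16 FPKM in the DAC minipigs, again highest in DAC replicate 4. PPP3R1 (ENSSSCG00000036115, chromosome 3 from 74000400 to 74071340), the regulatory B subunit, was at 3.95, 4.96 and 5.14 FPKM in the sham minipigs and at 5.30, 3.40 and 4.18 FPKM in the DAC minipigs. The span of PPP3CA holds 1 other protein-coding gene of RefSeq with no row under its symbol. For all 3 subunit genes the groups overlapped. The differences in mean log2(FPKM + 1) were 0.16 for PPP3CA, 0.07 for PPP3CB and -0.11 for PPP3R1, with standard errors of 0.23, 0.14 and 0.16. Without DAC replicate 4 these differences were -0.06, -0.05 and -0.25, so the sign for both catalytic subunits rested on that minipig.

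The catalytic genes were compared with each other in the same way. PPP3CA gave between 44.5% and 53.6% of their summed FPKM and was the higher of the pair in 2 of 6 minipigs, and the difference was not past the threshold (exact two-sided sign-flip permutation P = 0.250, adjusted P = 0.250 over 10 pairs). The ratio of PPP3CA to PPP3CB ranged from 0.801 to 1.15. The summed RCAN level exceeded the summed level of the catalytic genes by 10.3-fold to 14.9-fold in the 6 minipigs, with overlapping groups. RCAN1 alone stood at 1.17 to 1.50 times the catalytic genes in the sham minipigs. In DAC replicates 4, 5 and 6 it stood at 3.93, 2.0 and 4.39 times, with no overlap. This largely restates the rise of RCAN1 for which the set was chosen and is no further result.

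Among the NFAT factors, NFATC1 (ENSSSCG00000004856, chromosome 1 from 145911045 to 146017701), known for its part in the growth of heart valves, was the most abundant. NFATC1 was at 7.02, 7.33 and 6.95 FPKM in the sham minipigs and at 7.61, 6.89 and 6.70 FPKM in the DAC minipigs. The listed span of NFATC1 extends on both sides beyond the RefSeq gene, from 145940099 to 146002897, so its FPKM may include other reads. Its values hardly moved, with an SD of 4.63% of the mean over all 6 minipigs and a difference in mean log2(FPKM + 1) of -0.01 with a standard error of 0.10. NFATC3 (ENSSSCG00000029578, chromosome 6 from 28617445 to 28872058), a form linked to the hypertrophic response of cardiomyocytes, was at 5.89, 5.16 and 6.37 FPKM in the sham minipigs and at 4.04, 5.16 and 5.03 FPKM in the DAC minipigs. Every DAC value lay below every sham value, but only just, since the highest DAC value was 5.160 and the lowest sham value was 5.163 FPKM. The difference for NFATC3 was -0.25 with a standard error of 0.13. The listed span of NFATC3 also holds 4 other protein-coding genes of RefSeq (DUS2, ESRP2, PLA2G15 and SLC7A6), none of which has a row under its symbol, so its FPKM may include their reads. This span also overlaps that of 1 listed gene without a symbol on the same strand.

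NFATC2 (ENSSSCG00000007477, chromosome 17 from 52743570 to 52906821), best known from T cells, was at 2.76, 2.38 and 2.32 FPKM in the sham minipigs and at 2.41, 2.66 and 2.93 FPKM in the DAC minipigs. NFATC4 (ENSSSCG00000001986, chromosome 7 from 74918982 to 74931348), the form first tied to hypertrophy through its binding to GATA4, was at 1.62, 1.39 and 1.97 FPKM in the sham minipigs and at 2.34, 1.02 and 1.86 FPKM in the DAC minipigs. The groups overlapped for both genes. The differences in mean log2(FPKM + 1) were 0.07 for NFATC2 and 0.02 for NFATC4, with standard errors of 0.11 and 0.20. NFATC4 was highest in DAC replicate 4 and lowest in DAC replicate 5.

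NFATC1 exceeded NFATC3, NFATC3 exceeded NFATC2, and NFATC2 exceeded NFATC4 in 6 of 6 minipigs. All 6 pairs of NFATC genes had an exact two-sided sign-flip permutation P of 0.0312 (adjusted P = 0.0347 over 10 pairs). Here too, the test does not cover reads of other genes in the row of NFATC3. The lead of NFATC1 over NFATC3 was between 1.09-fold and 1.88-fold, and that of NFATC2 over NFATC4 between 1.03-fold and 2.60-fold. NFATC1 supplied 39.5% to 46.4% of the summed NFATC level and NFATC4 6.50% to 14.3%. The summed NFATC level averaged 17.0 ± 0.703 FPKM in sham and 16.2 ± 0.419 FPKM in DAC minipigs (SD, n = 3 each), with overlapping values.

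Over all 10 genes, the order of the mean FPKM was RCAN2, RCAN1, NFATC1, PPP3CB, PPP3CA, NFATC3, PPP3R1, NFATC2, NFATC4 and RCAN3. RCAN2 was at 110.3 ± 5.63 FPKM (SD, n = 6) and RCAN1 at 27.1 ± 19.9 FPKM (SD, n = 6). The ranges of RCAN2 and RCAN1 did not overlap, nor did those of RCAN1 and NFATC1 or of PPP3R1 and NFATC2. The ranges of all other neighbors in this order overlapped, from NFATC1 at 7.08 FPKM down to PPP3R1 at 4.49 FPKM and from NFATC2 at 2.58 FPKM down to RCAN3 at 0.950 FPKM. Among the genes tested, the mean FPKM of RCAN2 was at percentile 97.4 and that of NFATC4 at percentile 11.7.

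At the threshold for differentially expressed genes (DEGs) of the study, an unadjusted P under 0.05, 939 of the 11029 genes tested (8.51%) were called, 358 upregulated and 581 downregulated in the DAC group, and with P adjusted by the Benjamini-Hochberg method in limma 0 genes passed 0.05. Of the 9 genes of the set that were tested, 1 was called (upregulated, as were 3.25% of all genes tested), and this was RCAN1, whose values led to the choice of the set. The groups did not overlap in 2 of the 9, RCAN1 with DAC above sham and NFATC3 with DAC below sham, against 14.9% of all genes tested, 6.01% above and 8.91% below. The remaining 7 tested genes neither met the threshold nor separated the groups.

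The rest of the pathway was examined through 60 genes listed by function. Of these, 51 had values and 47 passed the filter, and 3 of the 47 (6.38%) were DEGs, all upregulated, against 8.51% of all genes tested. This direction depended on single minipigs, since with DAC replicate 6 left out 2 were upregulated and 3 downregulated, with sham replicate 2 left out 3 and 2, and with DAC replicate 5 left out 4 and 2. The median log2 fold change of the 47 genes was -0.03, against -0.02 over all genes tested, and 40.4% of them had the higher mean in DAC minipigs, against 46.6% of all genes tested.

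Of 7 tested genes for calcium entry, 0 were DEGs. The smallest P among them was that of STIM2, a calcium sensor of the endoplasmic reticulum, which averaged 1.71 ± 0.217 FPKM in sham and 2.12 ± 0.215 FPKM in DAC minipigs (SD, n = 3 each), with a limma adjusted P of 0.655.

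Of 12 tested genes for proteins that anchor or bind calcineurin, 0 were DEGs, and the log2 fold changes lay between -0.24 and 0.28. MYOZ2, a protein of the Z-disc that tethers calcineurin in heart muscle, averaged 119 ± 3.34 FPKM in sham and 115 ± 22.5 FPKM in DAC minipigs (SD, n = 3 each). CABIN1, an inhibitor of calcineurin, averaged 12.2 ± 0.366 and 12.1 ± 0.960 FPKM (SD, n = 3 each), respectively. CHP1, a calcineurin-like calcium-binding protein that can inhibit the enzyme, was at 13.3, 11.6 and 10.6 FPKM in the sham minipigs and at 13.7, 16.0 and 14.0 FPKM in the DAC minipigs. The DAC values of CHP1 lay above the sham values, and its log2 fold change of 0.28 (standard error 0.12) had an adjusted P of 0.592 from limma. The listed span of CHP1 also holds EXD1 of RefSeq, which has no row under its symbol. CHP1 met the threshold for DEGs under 4 of 14 alternative settings.

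Of 11 tested kinases that can phosphorylate NFAT and so oppose calcineurin, 1 was a DEG. DYRK2 (ENSSSCG00000000958, chromosome 5 from 32047348 to 32061704), a kinase of the DYRK family, was at 14.0, 16.7 and 11.8 FPKM in the sham minipigs and at 25.4, 17.2 and 26.5 FPKM in DAC replicates 4, 5 and 6. As for RCAN1, the DAC values all lay above the sham values, DAC replicates 4 and 6 were the high ones and DAC replicate 5 was close to the sham range. The log2 fold change of DYRK2 was 0.65 (SE 0.20, limma adjusted P = 0.508), and DYRK2 remained a DEG under 14 of 14 alternative settings. DYRK1A, which is known to prime NFAT for export from the nucleus, averaged 15.2 ± 0.322 FPKM in sham and 16.1 ± 1.33 FPKM in DAC minipigs (SD, n = 3 each). GSK3B, which acts after it, averaged 12.3 ± 1.48 and 14.2 ± 0.550 FPKM (SD, n = 3 each), respectively. Neither DYRK1A nor GSK3B was a DEG.

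Of 8 tested partners and relatives of NFAT, 1 was a DEG. MEF2A, a transcription factor that takes part in the muscle response to calcium, was at 30.3, 30.2 and 28.8 FPKM in the sham minipigs and at 40.7, 33.3 and 36.2 FPKM in the DAC minipigs, with no overlap. The listed span of MEF2A starts at 138341153, well before the RefSeq gene at 138398270, so its FPKM may include other reads. The log2 fold change of MEF2A was 0.29 (SE 0.11, limma adjusted P = 0.563). MEF2A was no longer a DEG when any 1 of the 3 sham minipigs, DAC replicate 4 or DAC replicate 6 was left out. GATA4, the cardiac factor that binds NFATC4, averaged 33.8 ± 3.25 FPKM in sham and 30.1 ± 4.28 FPKM in DAC minipigs (SD, n = 3 each) and was not a DEG. NFAT5, the relative that is not switched by calcineurin, averaged 14.6 ± 0.984 and 17.5 ± 3.32 FPKM (SD, n = 3 each), respectively, with overlapping groups.

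Of 7 tested genes that are often read as targets of the pathway or as signs of hypertrophy, 1 was a DEG. The row named NPPB (ENSSSCG00000003431, chromosome 6 from 71919495 to 71932254) spans both RefSeq genes for natriuretic peptides, NPPA from 71919557 to 71921345 and NPPB from 71930374 to 71931843, so the peptides cannot be told apart in it. This row was at 15.5, 43.9 and 43.4 FPKM in the sham minipigs and at 80.6, 93.3 and 106.6 FPKM in DAC replicates 4, 5 and 6. All DAC minipigs were high for it, DAC replicate 5 included, and its log2 fold change was 1.55 (SE 0.38, limma adjusted P = 0.482). The log2 fold change was 1.07 without sham replicate 1, and the row remained a DEG under 14 of 14 alternative settings. MYH7, the slow myosin heavy chain that predominates in pig ventricle, averaged 1903 ± 31.1 FPKM in sham and 1851 ± 73.5 FPKM in DAC minipigs (SD, n = 3 each). ACTA1, the skeletal actin of the fetal gene program, averaged 1994 ± 248 and 1855 ± 480 FPKM (SD, n = 3 each), respectively. Neither MYH7 nor ACTA1 was a DEG. Both rows extend well beyond the RefSeq gene of that symbol, and that of MYH7 holds another protein-coding gene of RefSeq with no row under its symbol, so their FPKM may include other reads.

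**Figure D3:**
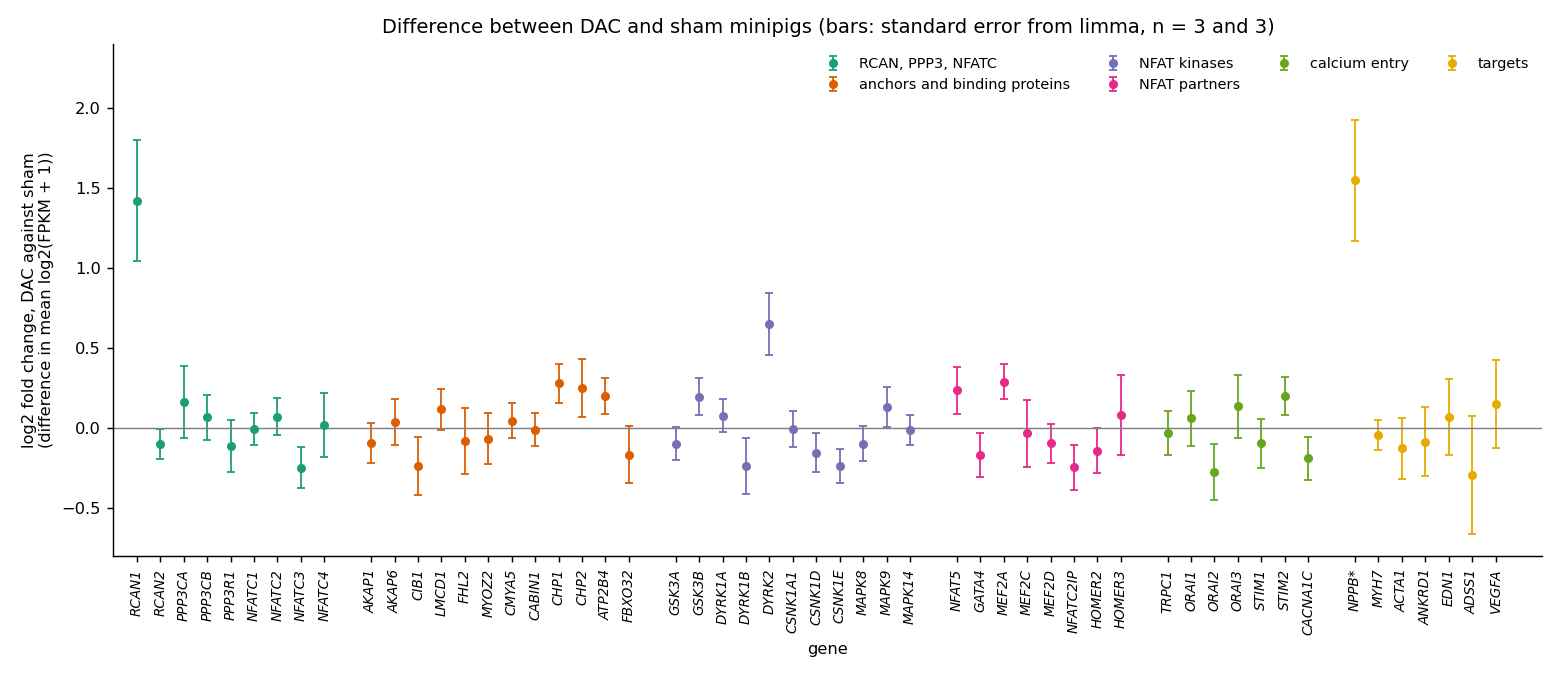
Difference in mean log2(FPKM + 1) between DAC and sham minipigs (vertical axis) for the 9 tested genes of the set and tested genes of 5 other lists of the pathway (horizontal axis), colored by group, with bars for the standard error from limma (n = 3 and 3). RCAN1 at 1.42 and the row named NPPB at 1.55, marked with an asterisk because it spans NPPA too, stand apart, DYRK2 follows at 0.65, and the rest lie between -0.29 and 0.29.

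The pattern of RCAN1 over the 6 minipigs was compared with that of 9960 other tested genes with a symbol. For each gene, the log2(FPKM + 1) was taken relative to its own sham mean, and the measure of likeness was the root mean square difference from RCAN1 over the 6 minipigs, which had a median of 1.14 over all these genes. The 8 nearest genes had a difference between 0.446 and 0.514 and were KLHL4, CCL2, LTBP2, CDON, PHLDA1, FMOD, COL12A1 and CTNND2. Since they were picked as the nearest to RCAN1, their likeness to it is the rule and not a finding. A gene that stayed at its sham mean in every minipig would differ from RCAN1 by 1.12 on this measure. KLHL4, a kelch-like protein, was at 0.747 to 1.67 FPKM in the sham minipigs and at 5.56, 0.610 and 3.77 FPKM in the DAC minipigs. CCL2, a chemokine that attracts monocytes, was at 7.11 to 8.32 FPKM in the sham minipigs and at 19.8, 8.84 and 18.6 FPKM in the DAC minipigs. LTBP2, a protein of the microfibrils, was at 1.16 to 1.79 FPKM in the sham minipigs and at 5.90, 1.81 and 3.21 FPKM in the DAC minipigs. FMOD and COL12A1 encode proteins that bind to or lie along collagen fibers. FMOD was at 2.37 to 4.46 FPKM in the sham minipigs and at 11.8, 3.86 and 6.86 FPKM in the DAC minipigs. COL12A1 was at 2.35 to 3.54 FPKM in the sham minipigs and at 11.9, 2.88 and 6.18 FPKM in the DAC minipigs. The groups overlapped for FMOD, COL12A1, KLHL4 and PHLDA1, and not for the other nearest genes. CTNND2 was low, at 0.129 to 0.809 FPKM in the sham minipigs. None of the calcineurin or NFATC genes was among the 8, and nothing is read from this. Their differences in mean log2(FPKM + 1) lay between -0.25 and 0.16, and genes that changed so little cannot come near RCAN1 on this measure.

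**Figure D4:**
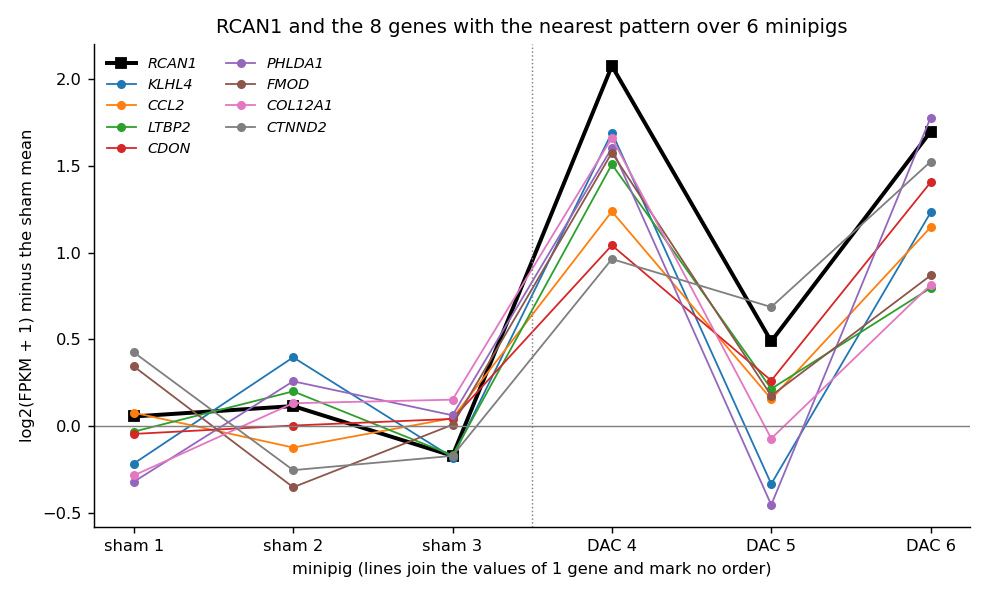
The log2(FPKM + 1) relative to the sham mean of the same gene (vertical axis) in each of the 6 minipigs (horizontal axis) for RCAN1 (black squares) and the 8 genes with the nearest pattern; lines join the values of 1 gene and mark no order. RCAN1 reached 2.08 and 1.70 in DAC replicates 4 and 6 and 0.49 in DAC replicate 5, and the 8 genes, picked for their nearness to these values, differ from them by a root mean square of 0.446 to 0.514.

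Markers of other cells moved with the groups in part. The 8 fibroblast markers, all with values, summed to 482 to 555 FPKM in sham and 688 to 779.6 FPKM in DAC minipigs. For 5 of them (COL1A1, COL1A2, COL3A1, LUM and POSTN), every DAC minipig lay above every sham minipig, as for 6.01% of all genes tested. The groups overlapped for DCN, PDGFRA and TCF21. In DAC replicate 4, DCN (99.8 FPKM) and TCF21 (4.44 FPKM) lay below every sham minipig. The 6 markers of smooth muscle cells and pericytes summed to between 133 and 161 FPKM in the sham group and between 159.5 and 179.7 FPKM in the DAC group. The 7 endothelial markers summed to 111 to 160.4 FPKM in the sham group and 109.9 to 156 FPKM in the DAC group. The 6 leukocyte markers with values summed to 40.2 to 42.7 and 33.7 to 46.3 FPKM, respectively. Among the endothelial and leukocyte markers, EMCN lay higher, and VWF and CD163 lower, in every DAC minipig than in any sham minipig. Of all genes tested, 6.01% lay higher and 8.91% lower in this way, and nothing is read from these markers. The 2 adipocyte markers with values summed to 4.64 to 12.2 FPKM in the sham group and 9.78 to 19.9 FPKM in the DAC group, and the 3 red blood cell markers to 11.4 to 39.3 and 5.96 to 38.5 FPKM. Of the markers in all these lists, 1 red blood cell marker was at 0 in a minipig. Of 4 markers of atrial muscle, MYL4 and SLN had values. MYL4 was at 2.03, 3.79 and 1.08 FPKM in the sham minipigs and at 9.22, 0.780 and 17.6 FPKM in DAC replicates 4, 5 and 6, thus high in the same minipigs as RCAN1. SLN was at 0.278 to 1.01 FPKM in the sham minipigs and at 1.44, 0.932 and 9.83 FPKM in the DAC minipigs. The part of these cells in the values of RCAN1 was not tested.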

How the data were processed

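RNA from ventricular tissue of 3 sham and 3 DAC minipigs was sequenced after library preparation with a NEBNext Ultra kit. The authors deposited FPKM per gene, with 1 column for each minipig and no pooling, and HISAT2 and the build susScr11 are named in the submitters' processing notes. The program that computed FPKM is not given in the sources used here. Each gene listed has at least 0.500 FPKM in its highest library. No steps of whole reads were seen (at most 6 of at least 3459 low genes shared a log2 ratio between libraries), so depth is unknown and precision comes from the spread between minipigs. In the table, 10848 genes carry a symbol, and 520 more were given one through their identifier. Positions are those of the table, on susScr11, and were compared with RefSeq on the same assembly (Sscrofa11.1).

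Groups were compared with limma 3.58.1 in R 4.3.3 on log2(FPKM + 1), with a variance trend, keeping genes that reached 1 FPKM in 3 or more minipigs. The log2 fold change is on this scale, which understates the change of low genes. DEGs had an unadjusted P under 0.05, as in the study, and P was adjusted by the Benjamini-Hochberg method over all 11029 genes tested. Levels between genes of a family were compared by exact sign-flip permutation over 6 minipigs (Python 3.11.15, scipy 1.17.1), and figures used matplotlib 3.10.9. The text names all 10 genes of the set, the pathway genes that were DEGs, the gene with the smallest P in each pathway list (that of 1 list is not reported here), and the 8 genes nearest to RCAN1; other pathway genes named are examples chosen after their values were seen. The genes of the set, the pathway and marker lists, and the tests were chosen with earlier results of these data known. The fits were checked on simulated data. Alternative settings comprised a minimum of 5 FPKM, no filter, a pseudocount of 0.1, median scaling, quantile normalization, leaving out mitochondrially encoded genes, the variance of each gene on its own, sample weights and each minipig left out in turn.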

Additional observations from a re-analysis of the deposited data

How the results depend on the processing

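The number of DEGs over all genes, 939 with 61.9% downregulated, was 579 with a minimum of 5 FPKM, where fewer genes were tested, and between 595 and 1019 with 1 minipig left out. With mitochondrially encoded genes left out, 502 DEGs were upregulated and 408 downregulated. The log2 fold change of RCAN1 was between 1.09 and 1.89 under the 14 alternatives, a description only, since the set was chosen for the rise of RCAN1 in these same minipigs. The log2 fold changes of DYRK2, MEF2A and the row named NPPB kept their sign. The search for the genes nearest to RCAN1 was not repeated under the alternatives. Among the other genes of the set, the difference crossed 0 for NFATC1, NFATC4, PPP3CA, PPP3CB and PPP3R1 under some alternatives, within -0.25 and 0.33. The number of DEGs among the other pathway genes, 3 with all minipigs, was between 2 and 6 with 1 minipig left out. It was 5 when sham replicate 2 or DAC replicate 6 was left out, and 6 when DAC replicate 5 was. Downregulated genes among them were 0 with all minipigs, 2 without sham replicate 2, 1 without sham replicate 3, 2 with DAC replicate 5 left out and 3 with DAC replicate 6 left out. An adjusted P under 0.05 was reached by 1 gene (0.0276) without DAC replicate 6 and by 0 genes under the other settings. Of the 10 pairs of levels, 9 were past the threshold, also with a pseudocount of 0.1. The pairs with RCAN1 among them are a description only, since its values led to the choice of the set. With 1 minipig left out, 0 pairs were past the threshold, since 5 minipigs cannot give an exact two-sided sign-flip permutation P under 0.0625. In each of these settings, 9 pairs kept 1 direction in every remaining minipig. No paired analysis was made, since the minipigs were assigned to the groups at random and form no pairs. The precision rests on 3 minipigs a group, with unknown depth.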
